A study of Mus musculus with 16 samples.

Results

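The transcription factors that hold CD4+ T cells in a naive state were examined as 9 genes chosen by name, Tcf7, Lef1, Satb1, Bach2, Foxp1, Ets1, Ikzf1, Bcl11b and Runx1. They were chosen with earlier results of these data known, so shares called among them are not those of an unselected set. Every probe whose gene symbol in the platform annotation was one of these names was used, which gave 11 probes of 7 genes among 25697 probes on the array. Lef1 and Ikzf1 had 2 probes each, Ets1 had 3, and Satb1, Foxp1, Bcl11b and Runx1 had 1 each. No probe was annotated to Tcf7 or Bach2, which were not analysed here, and 1719 probes of the array are unnamed here. To be tested, a probe needed a detection p below 0.05 on 4 or more of 16 arrays. All 11 probes met that condition, as did 12344 probes in all.

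The arrays held RNA of MALT1-deficient CD4+ T cells from 4 C57BL/6 mice, and MALT1 is the scaffold and protease that carries the T cell receptor signal to NF-kB. Portions of each mouse's cells were transduced by retrovirus with isoform A of MALT1, with its isoform B or with a mock vector, so that all groups share the Malt1 deficiency and the transduction. The 4 groups were isoform A unstimulated, isoform A stimulated, isoform B stimulated and mock stimulated, where stimulation was CD3/CD28 for 2.5 h, and each group had 4 arrays, 1 per mouse. Isoform B and mock cells have no unstimulated arrays here, and the age of the mice and the promoter of the vector are not given in the sources used here. The labels call the cells CD4+ T cells and do not call them naive. Of 12 defining T cell markers, 11 had a probe, and all 11, among them Cd3e and Cd4, were detected on 16 of 16 arrays. Of 10 markers of CD8 T cells and NK cells 7 were also detected on 4 or more arrays, and Cd8a, Gzmb and Ncr1 on none. The number of arrays limits the precision, and the p-values measure the spread between these 4 mice.

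These proteins bind DNA and act together in T cells. Lef1 and Tcf7 are HMG-box factors that set up and keep the T cell programme, Bcl11b is a zinc finger factor of T lineage commitment, and Satb1 organises chromatin loops in thymocytes and T cells. Ets1, Runx1 and Foxp1 belong to the ETS, Runt and forkhead families, Foxp1 is known to enforce quiescence in naive T cells, and Ikzf1 encodes Ikaros, a zinc finger repressor that limits responses to the T cell receptor. When naive T cells are activated and differentiate, several of these genes are known to be turned down.

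Across the 16 arrays the median raw intensity was between 121.8 and 138.8, and arrays of a group correlated over tested probes with an r of 0.985 to 0.9953. Between 10247 and 11012 probes were detected on stimulated arrays and between 11239 and 12085 on unstimulated arrays. The highest raw intensity was 34329 to 38404 on the arrays of mice 1 and 2 and 41735 to 43710 on those of mice 3 and 4, a split that crosses all groups, and values from each pair of mice are given where a call differs in one of them. Malt1 was read by 1 probe that was detected on 4 of 16 arrays, so it does not check which vector a library carried.

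How these genes differ after 2.5 h of CD3/CD28 stimulation was read in isoform A cells. Lef1, Satb1, Bcl11b and the probe of Ets1 numbered ILMN_3157483 fell, while Foxp1 and Ikzf1 rose. The falls were between 2.25-fold and 3.37-fold and the rises of Foxp1 and Ikzf1 between 1.49-fold and 2.05-fold. Of 11 probes, 9 passed the test, 4 higher and 5 lower, beside 66.0% of all probes tested (31% higher and 34.9% lower), so that the share called among these genes is read against a background where most probes changed. The median difference was 0.09 on the log2 scale over the 11 probes and -0.000313 over all probes. The 2 groups of arrays did not overlap for the same number of probes, 9 of 11, against 60.9% of all probes. In total RNA of a cell population, fewer cells of a type and less RNA per cell cannot be told apart. When arrays were scaled to a common median instead, all probes shifted by a median of -0.21, and 2440 probes were higher and 5177 lower (32% of calls higher instead of 47%), so that small differences depend on that choice.

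**Figure D1:**
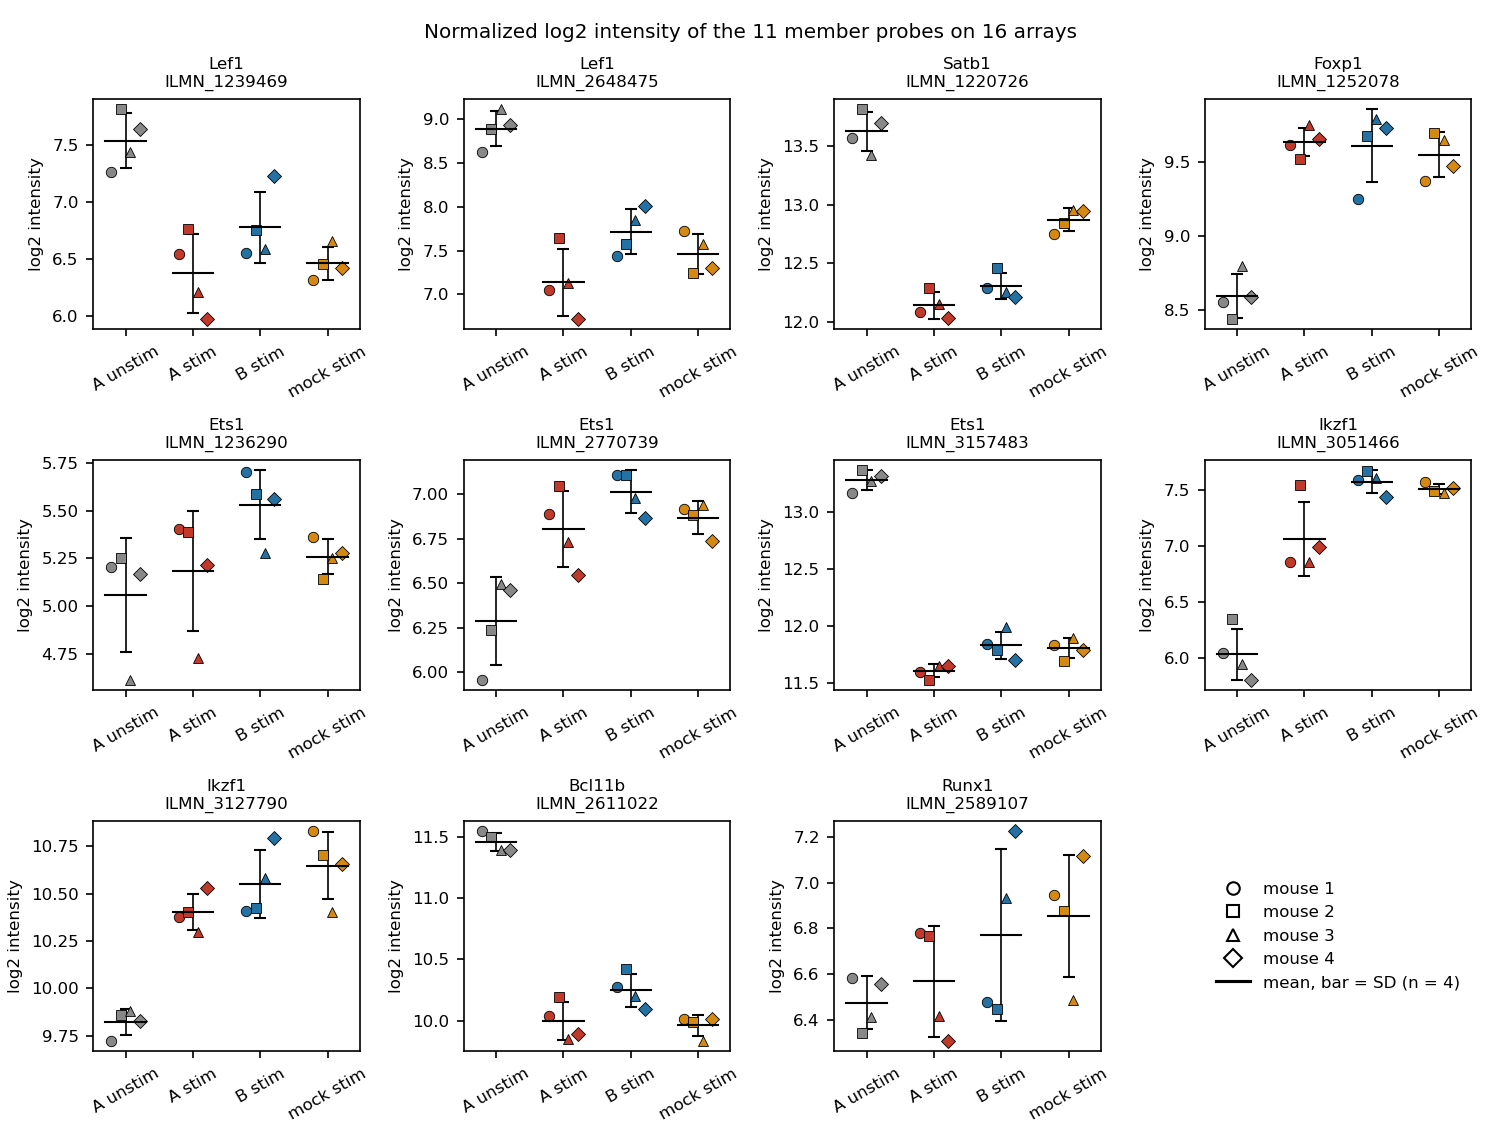
Normalized log2 intensity of the 11 probes (one panel each, with its own vertical axis) in the 4 groups, where each symbol is the array of 1 mouse and the bars are the mean and SD over 4 mice. The unstimulated arrays lie above all stimulated arrays for both Lef1 probes, Satb1, Bcl11b and Ets1 ILMN_3157483, and below them for Foxp1 and both Ikzf1 probes.

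The promoters of the genes with the clearest changes are shown because Satb1, Lef1 and Bcl11b fell together while Foxp1 rose. Each window runs from 250 bases before to 50 bases after the most 5′ start of the gene in the RefSeq promoter table (GRCm38.p6), read 5′ to 3′ on the gene's strand. Of the 9 genes, 8 had a window in that table, and Ets1 had none. Capitals mark matches, on either strand, to core motifs of the families studied here: CTTTGA for TCF/LEF, TGTGGT for RUNX, CCGGAA for ETS, TGTTTA for forkhead factors and TGGGAA for Ikaros. These letters were present in 16%, 16.8%, 14.9%, 13.4% and 25.6% of 32851 windows of the same length.
Satb1 promoter, chr17:51833241-51833540, minus strand: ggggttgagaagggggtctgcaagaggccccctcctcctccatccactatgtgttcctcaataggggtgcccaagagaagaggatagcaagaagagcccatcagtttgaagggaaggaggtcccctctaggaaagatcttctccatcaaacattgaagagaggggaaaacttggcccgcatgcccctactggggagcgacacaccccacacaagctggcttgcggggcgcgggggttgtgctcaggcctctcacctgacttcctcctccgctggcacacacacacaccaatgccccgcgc
Lef1 promoter, chr3:131110047-131110346, plus strand: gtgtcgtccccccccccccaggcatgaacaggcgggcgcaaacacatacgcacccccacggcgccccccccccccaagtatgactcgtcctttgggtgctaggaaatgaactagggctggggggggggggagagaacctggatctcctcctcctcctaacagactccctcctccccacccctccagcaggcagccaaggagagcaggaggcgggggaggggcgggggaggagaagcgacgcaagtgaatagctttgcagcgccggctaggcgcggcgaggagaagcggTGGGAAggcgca
Bcl11b promoter, chr12:108003365-108003664, minus strand: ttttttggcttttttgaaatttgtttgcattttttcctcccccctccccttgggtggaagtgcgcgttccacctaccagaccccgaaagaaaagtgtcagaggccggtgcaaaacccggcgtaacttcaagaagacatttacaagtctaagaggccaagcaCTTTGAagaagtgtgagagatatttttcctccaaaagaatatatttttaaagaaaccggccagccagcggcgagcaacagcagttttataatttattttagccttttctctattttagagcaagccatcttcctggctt
Foxp1 promoter, chr6:99520944-99521243, minus strand: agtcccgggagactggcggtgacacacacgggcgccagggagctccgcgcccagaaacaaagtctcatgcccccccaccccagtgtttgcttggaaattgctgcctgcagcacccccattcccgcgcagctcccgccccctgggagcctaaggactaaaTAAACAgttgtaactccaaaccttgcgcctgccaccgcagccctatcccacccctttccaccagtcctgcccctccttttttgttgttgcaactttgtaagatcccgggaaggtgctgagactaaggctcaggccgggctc
Counted from 1 at the 5′ end of the window, Lef1 held the Ikaros letters at position 289, Bcl11b the TCF/LEF letters at position 162 and Foxp1 the forkhead letters at position 160. The window of Satb1 held none of the 5 motifs, and none of these 4 windows held the RUNX or ETS letters. The table holds further windows for other starts of some of these genes, 5 in all for Satb1, 4 for Lef1, 3 for Foxp1 and 1 for Bcl11b. Over all of them the Ikaros letters were in 2 of 5 windows of Satb1, 3 of 4 of Lef1 and 1 of 3 of Foxp1, and the TCF/LEF letters in 1 of 4 of Lef1, 1 of 1 of Bcl11b and 1 of 3 of Foxp1. The forkhead letters were in 3 of 3 windows of Foxp1 and 1 of 4 of Lef1, and the RUNX and ETS letters in none. The GC content of the printed windows was 59.0% for Satb1, 67.3% for Lef1 and 43.0% for Bcl11b, beside 60.3% for Foxp1. A match is a description of the letters and not of a bound site.

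Satb1, the chromatin organiser, was read by 1 probe (ILMN_1220726). In unstimulated isoform A cells its log2 intensity was 13.57, 13.81, 13.42 and 13.70 in mice 1 to 4, and in stimulated isoform A cells 12.09, 12.29, 12.16 and 12.03. Every unstimulated array was above every stimulated one, and the difference lay between -1.67 and -1.27 in the individual mice. Satb1 fell by 1.48 ± 0.10 on the log2 scale (SE, n = 4 mice), 2.80-fold, with an adjusted p of 5.25e-10 from limma.

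Lef1, the HMG-box partner of beta-catenin in Wnt signalling, was read by 2 probes that moved the same way. On ILMN_2648475 the log2 intensity was 8.63, 8.89, 9.11 and 8.94 in unstimulated cells and 7.06, 7.65, 7.13 and 6.72 in stimulated cells with isoform A. The stimulated array of mouse 2 was the highest of its group but stayed below all unstimulated arrays. The fall was 1.75 ± 0.18 (3.37-fold, adjusted p = 1.14e-07). On ILMN_1239469 the levels were 7.26, 7.82, 7.44 and 7.65 before stimulation and 6.54, 6.76, 6.21 and 5.97 after it, with no overlap and a fall of 1.17 ± 0.18 (2.25-fold, adjusted p = 1.44e-05). On both probes the isoform A array of mouse 4 had the lowest level after stimulation, and the fall in single mice ran from 0.72 to 1.68 on the second probe, which is a wider range than for Satb1. Over the alternative fits the difference on the second probe was -1.66 to -0.63 and always passed, so its size depends on the processing.

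Bcl11b, the factor of T lineage commitment, stood at 11.54, 11.50, 11.40 and 11.39 in unstimulated cells and at 10.04, 10.19, 9.85 and 9.89 in stimulated cells with isoform A. The groups were far apart relative to their SDs of 0.07 and 0.15. Bcl11b fell by 1.46 ± 0.10 (2.76-fold, adjusted p = 3.87e-10), and by 1.3 to 1.54 in the individual mice.

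Ets1, a founding member of the ETS family that is abundant in resting lymphocytes, was read by 3 probes that did not move together. ILMN_3157483, which the annotation ties to one RefSeq transcript, stood at 13.17, 13.36, 13.27 and 13.32 in unstimulated cells and at 11.60, 11.53, 11.65 and 11.65 in stimulated cells with isoform A. This was the fall with the smallest error of the 11 probes, 1.68 ± 0.09 (3.20-fold, adjusted p = 1.39e-11), and no arrays overlapped. ILMN_2770739 and ILMN_1236290 are annotated to another transcript of the gene. The log2 level of ILMN_2770739 was 5.96, 6.24, 6.50 and 6.46 before stimulation and 6.89, 7.05, 6.73 and 6.55 after it, a difference of 0.52 ± 0.13 (adjusted p = 0.00164), but it turned to -0.03 under median scaling (adjusted p = 0.918). Mice 1 and 2 alone gave 0.87 and mice 3 and 4 alone 0.16 (adjusted p = 0.32), so this call rests on the first pair of mice and on the normalization. ILMN_1236290 was dim (raw intensity 124.1 to 168.2, detected on 14 of 16 arrays), and its difference of 0.12 ± 0.16 did not pass (adjusted p = 0.513). A direction for Ets1 as a gene is therefore not given.

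Foxp1, the forkhead factor of T cell quiescence, moved the other way from Lef1, Satb1 and Bcl11b. Its level was 8.56, 8.44, 8.80 and 8.59 in unstimulated cells and 9.61, 9.52, 9.75 and 9.65 in stimulated cells with isoform A. No arrays overlapped, and the 4 mice rose by 1.05, 1.08, 0.95 and 1.06. The rise was 1.04 ± 0.12 (2.05-fold, adjusted p = 6.51e-07).

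Ikzf1, the gene of Ikaros, rose on both of its probes. ILMN_3051466 stood at 6.04, 6.35, 5.95 and 5.81 in unstimulated cells and at 6.86, 7.55, 6.86 and 6.99 after stimulation with isoform A, a rise of 1.03 ± 0.14 (2.04-fold, adjusted p = 4.46e-06). The stimulated array of mouse 2 was the highest of its group by over 0.5. Over the alternative fits the rise on this probe was 0.49 to 1.21 and always passed (highest adjusted p 0.0457), so its size depends on the processing. ILMN_3127790 stood at 9.72, 9.86, 9.88 and 9.83 and then at 10.38, 10.40, 10.30 and 10.53, a rise of 0.58 ± 0.11 (1.49-fold, adjusted p = 0.000114). Both probes are annotated to the same transcript and neither showed an overlap of the groups.

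Runx1, the Runt factor that pairs with Cbfb, showed no change that passed. Its levels were 6.58, 6.34, 6.41 and 6.56 in unstimulated cells and 6.78, 6.77, 6.42 and 6.31 in stimulated cells with isoform A, and the groups overlapped. The difference was 0.09 ± 0.17 (adjusted p = 0.661), and under median scaling it was -0.47 (adjusted p = 0.0352), so that its direction depends on the scaling. The interval of the difference ran from -0.28 to 0.47.

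Defining T cell markers moved beside these changes. The summed linear intensity of the 11 measured markers was 66510 to 68720 on unstimulated arrays and 54550 to 59220 on stimulated isoform A arrays. After stimulation 2 markers were higher and 6 lower, beside 29.6% and 36.8% of all genes. Among the lower ones, Cd3g, Cd3d and Cd3e fell by 0.66, 0.60 and 0.59. With the mouse as a block Cd247 was lower as well (-0.28, adjusted p = 0.022). Over all 11 markers the median difference was -0.28 in the main fit, and 3 markers did not pass. Cd3g, Cd3d and Cd3e are thus part of a list with members on both sides of 0. The falls of Satb1, Lef1, Bcl11b and Ets1 ILMN_3157483 were not set against the whole list. The part of the T cell markers in the results was not tested.

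The same 11 probes in stimulated isoform B and mock cells were set against the unstimulated isoform A arrays, since these are the only unstimulated arrays. Those comparisons share the 4 unstimulated arrays and differ in the vector as well as in stimulation. With mock, 9 of 11 probes passed (65.3% of all probes), 4 higher and 5 lower (31% and 34.4% of all). With isoform B 10 of 11 passed (65.5% of all probes), 5 higher and 5 lower (30.7% and 34.8% of all). The arrays did not overlap for 9 of 11 probes with mock (61.4% of all probes) and for 10 of 11 with isoform B (61.9%). Satb1 was lower by 0.75 with mock, 1.32 with isoform B and 1.48 with isoform A. For Bcl11b the falls were 1.49, 1.21 and 1.46 in the same order, for Lef1 ILMN_2648475 1.43, 1.17 and 1.75, and for Ets1 ILMN_3157483 1.48, 1.45 and 1.68. Foxp1 rose by 0.95, 1.014 and 1.04, and Ikzf1 ILMN_3051466 by 1.48, 1.54 and 1.03. In mock cells, which lack both isoforms, Satb1, Lef1, Bcl11b and Ets1 ILMN_3157483 were thus lower and Foxp1 and Ikzf1 higher than in unstimulated isoform A cells. The dim probe Ets1 ILMN_1236290 passed with isoform B alone (0.47 ± 0.16, adjusted p = 0.0143), and this call was lost under median scaling (0.23, adjusted p = 0.328), without the unstimulated array of mouse 3 (0.32, adjusted p = 0.0639) and in mice 3 and 4 alone (0.53, adjusted p = 0.0771). Ets1 ILMN_2770739 passed with mock and with isoform B but not under median scaling (0.05 and 0.16). Runx1 missed the threshold with mock (0.38 ± 0.17, adjusted p = 0.0628) and with isoform B (0.30 ± 0.17, adjusted p = 0.144), and the mock difference passed once mouse 3 of the mock group was left out (0.51, adjusted p = 0.0181). Under median scaling these differences were -0.15 and -0.28, so Runx1 again has no settled direction. In 2 mice alone the mock difference passed for mice 1 and 2 (0.45, adjusted p = 0.0116) and the isoform B difference for mice 3 and 4 (0.59, adjusted p = 0.0406).

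**Figure D2:**
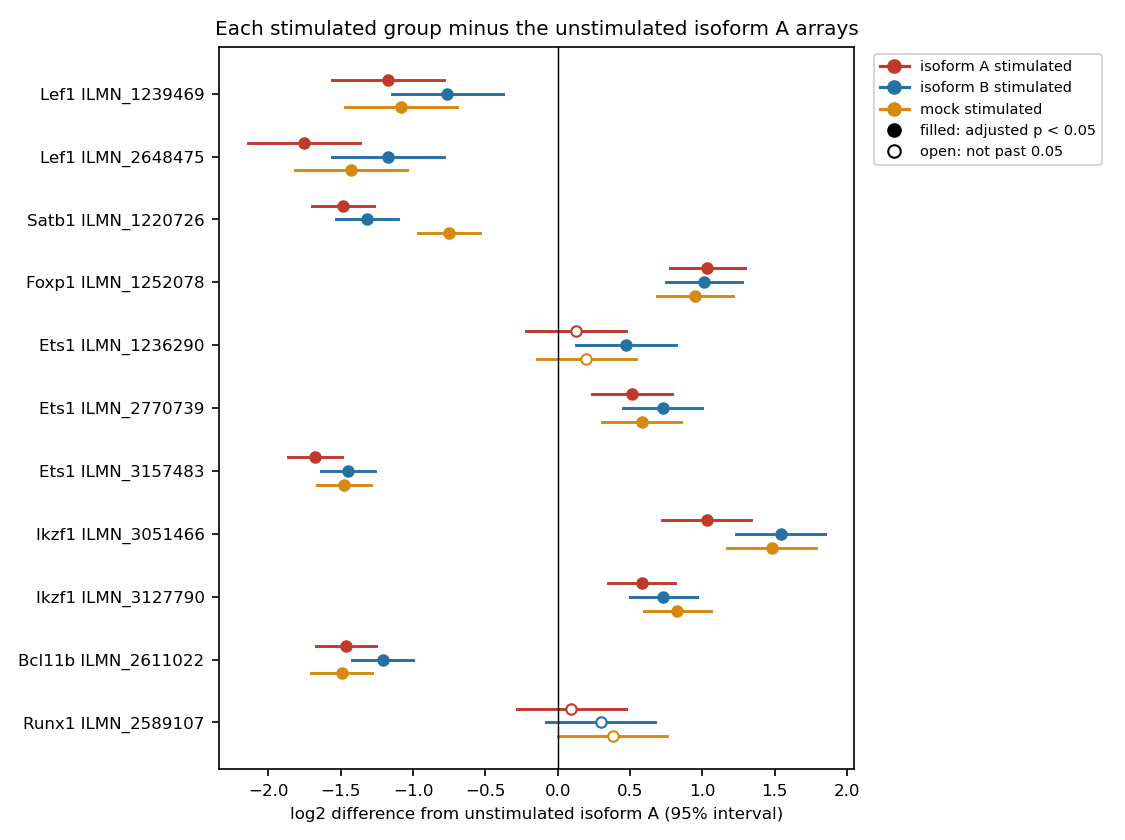
Log2 difference of each stimulated group from the unstimulated isoform A arrays for the 11 probes, with 95% intervals and filled points where the adjusted p is under 0.05. Satb1 fell by 0.75 with mock and by 1.32 and 1.48 with isoforms B and A, while Bcl11b and Foxp1 had intervals that overlap between the 3 stimulated groups.

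Isoform A was next set beside the mock vector in stimulated cells. Satb1 was lower with isoform A, and no other of the 11 probes passed. Satb1 stood at 12.75, 12.84, 12.96 and 12.94 on the mock arrays of mice 1 to 4, and the isoform A arrays, given above, reached 12.29 at most. Every isoform A array was below every mock array. The difference was -0.73 ± 0.10 (1.66-fold, adjusted p = 0.000484), and it was -0.67, -0.55, -0.80 and -0.91 in mice 1 to 4. Of all probes tested 4.12% passed (2.34% higher and 1.78% lower), beside 1 of 11 here. At an unadjusted p under 0.05 there were 4 of 11, against 18.6% of all probes. With the mouse as a block 2 of 11 probes passed, against 7.67% of all probes. The median was -0.20 over the 11 probes and -0.00272 over all. In mice 3 and 4 alone the Satb1 difference was -0.86 (adjusted p = 0.0151) and in mice 1 and 2 alone -0.61 (adjusted p = 0.13). Under median scaling it was -0.70 (adjusted p = 0.0235).

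Ikzf1 was close to the threshold on 1 of its probes. ILMN_3051466 stood at 7.58, 7.49, 7.48 and 7.52 on mock arrays, with an SD of 0.04, and at 6.86, 7.55, 6.86 and 6.99 with isoform A. The array of mouse 2 lay among the mock values and the other 3 below them. The difference was -0.45 ± 0.14 (adjusted p = 0.0867), with the mouse as a block the adjusted p was 0.0301, and without the isoform A array of mouse 2 the difference was -0.61 (adjusted p = 0.00796). In mice 3 and 4 alone it was -0.57 (adjusted p = 0.0379). The other Ikzf1 probe, ILMN_3127790, differed by -0.25 ± 0.11 (adjusted p = 0.222).

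Ets1 ILMN_3157483 stood at 11.83, 11.69, 11.89 and 11.79 on mock arrays, all above the isoform A arrays, but the difference of -0.20 ± 0.09 did not pass (adjusted p = 0.215). With Satb1 it made 2 of 11 probes whose groups did not overlap, against 9.50% of all probes. Lef1 differed by -0.32 and -0.09, Runx1 by -0.29, Foxp1 by 0.08 and Bcl11b by 0.03, with adjusted p-values of 0.35 to 0.912. The intervals were -0.18 to 0.24 for Bcl11b and -0.18 to 0.35 for Foxp1, so a difference of the size seen for Satb1 lay outside both.

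The third comparison set isoform B beside mock in stimulated cells. Satb1 was again the only probe of the 11 that passed, beside 1.48% of all probes (0.745% higher and 0.737% lower). It stood at 12.29, 12.46, 12.26 and 12.21 with isoform B, below all mock arrays, and the difference was -0.57 ± 0.10 (1.48-fold, adjusted p = 0.00608). It was -0.46, -0.38, -0.70 and -0.73 in mice 1 to 4. The call was lost under median scaling (-0.61, adjusted p = 0.101), in mice 1 and 2 alone (-0.42, adjusted p = 0.317) and in mice 3 and 4 alone (-0.72, adjusted p = 0.0954), although the sign did not turn. This comparison and the one of isoform A share the 4 mock arrays.

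Bcl11b stood at 10.28, 10.42, 10.20 and 10.10 with isoform B and at 10.01, 9.99, 9.84 and 10.02 with mock. Every isoform B array was above every mock array, but the difference of 0.29 ± 0.10 did not pass (adjusted p = 0.195, and 0.0613 in the model that blocks on mice). Satb1 and Bcl11b were thus 2 of 11 probes whose groups did not overlap, against 7.34% of all probes, and the same 2 had an unadjusted p under 0.05, against 11.4%. Both Lef1 probes were higher with isoform B by 0.32 and 0.26 on average without passing (adjusted p = 0.543 and 0.667). The other 7 probes had adjusted p-values between 0.567 and 0.959.

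Some genes listed as markers of other cell types differed between the stimulated groups beside the Satb1 result. Among 11 defining T cell markers 1 was lower with isoform A than with mock, beside 4.47% of all genes called, and 0 under median scaling. Between isoform B and mock 0 of these 11 passed. The summed linear intensity of 9 B cell markers was 528.8 to 958.9 with isoform A and 344.5 to 1667 with isoform B, against 221.3 to 303.6 with mock and 274.3 to 424.4 in unstimulated cells. Of these 9 markers 4 were measured. Cd74 and H2-Ab1 were higher than with mock by 1.65 and 1.52 with isoform A and by 1.59 and 1.63 with isoform B. The other 2 measured B cell markers did not pass against mock with either isoform, and Blnk was detected on no array. The calls in this list thus rest on Cd74 and H2-Ab1 alone and do not show a change of the list as a whole. For 5 erythroid markers the sum was 181.2 to 1037 with mock and between 46.07 and 138.6 on all other arrays, with Alas2 and Ermap detected on none. Both measured erythroid markers, Hba-a1 and Car2, passed as lower than with mock with isoform A, and 1 did with isoform B. Hba-a1 was lower than with mock by 2.32 with isoform A and 2.92 with isoform B. Of 8 macrophage and dendritic cell markers 1 was measured and 5 were detected on no array, and their sums overlapped in all groups (417.2 to 1409). The sums of 10 CD8 and NK cell markers also overlapped in all groups (14050 to 23980). Sums of 7 regulatory T cell markers were 5670 to 6391 with isoform A, 5306 to 5800 with isoform B and 4920 to 5569 with mock, beside 3911 to 4687 in unstimulated cells, and 0 of 6 measured members passed against mock with either isoform. With the mouse as a block 1 of them, Capg, was higher with isoform A (0.31, adjusted p = 0.0162). In that model the CD8 and NK cell marker Ctsw was also higher than with mock, by 0.29 with isoform A (adjusted p = 0.0292) and 0.49 with isoform B (adjusted p = 0.00215), and Car2 was lower by 0.83 with isoform B (adjusted p = 0.0117). The part of these markers in the Satb1 result was not tested.

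The fourth comparison set isoform A directly beside isoform B. None of the 11 probes passed in limma's fit, beside 0.138% of all probes, all of them higher with isoform A (0.00% lower). At an unadjusted p under 0.05 there were 6 of 11, against 10% of all probes, and 10 of the 11 differences were below 0, with a median of -0.23 against 0.00125 over all probes. The 10 probes come from 6 genes on the same arrays and are not independent of each other. Satb1 differed by -0.16 ± 0.10 (adjusted p = 0.629), with an interval of -0.38 to 0.05. Its difference was -0.21, -0.17, -0.10 and -0.18 in mice 1 to 4. In order of level, Satb1 was highest in unstimulated cells (13.63 ± 0.17, SD, n = 4), then with mock (12.87 ± 0.10), isoform B (12.31 ± 0.11) and isoform A (12.14 ± 0.11), and the difference between the last 2 had the same sign in all 4 mice but did not pass (adjusted p = 0.428 with the mouse as a block).

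The largest of these differences were those of Lef1 and Ikzf1. Lef1 ILMN_2648475 stood at 7.44, 7.57, 7.85 and 8.01 with isoform B, and the difference of isoform A from it was -0.58 ± 0.18 (adjusted p = 0.263). It was -0.39, 0.07, -0.72 and -1.28 in mice 1 to 4, so mouse 2 went against the others, and in mice 3 and 4 alone it was -1.001 (adjusted p = 0.0407). The other Lef1 probe differed by -0.41 ± 0.18 (adjusted p = 0.439). Ikzf1 ILMN_3051466 stood at 7.59, 7.67, 7.61 and 7.44 with isoform B and differed by -0.51 ± 0.14 (adjusted p = 0.206), or by -0.67 without the isoform A array of mouse 2 (adjusted p = 0.0239). Bcl11b differed by -0.25 ± 0.10 and Ets1 ILMN_3157483 by -0.23 ± 0.09 (adjusted p = 0.362 for both), and the latter was the 1 probe of the 11 whose groups did not overlap, against 3.96% of all probes.

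**Figure D3:**
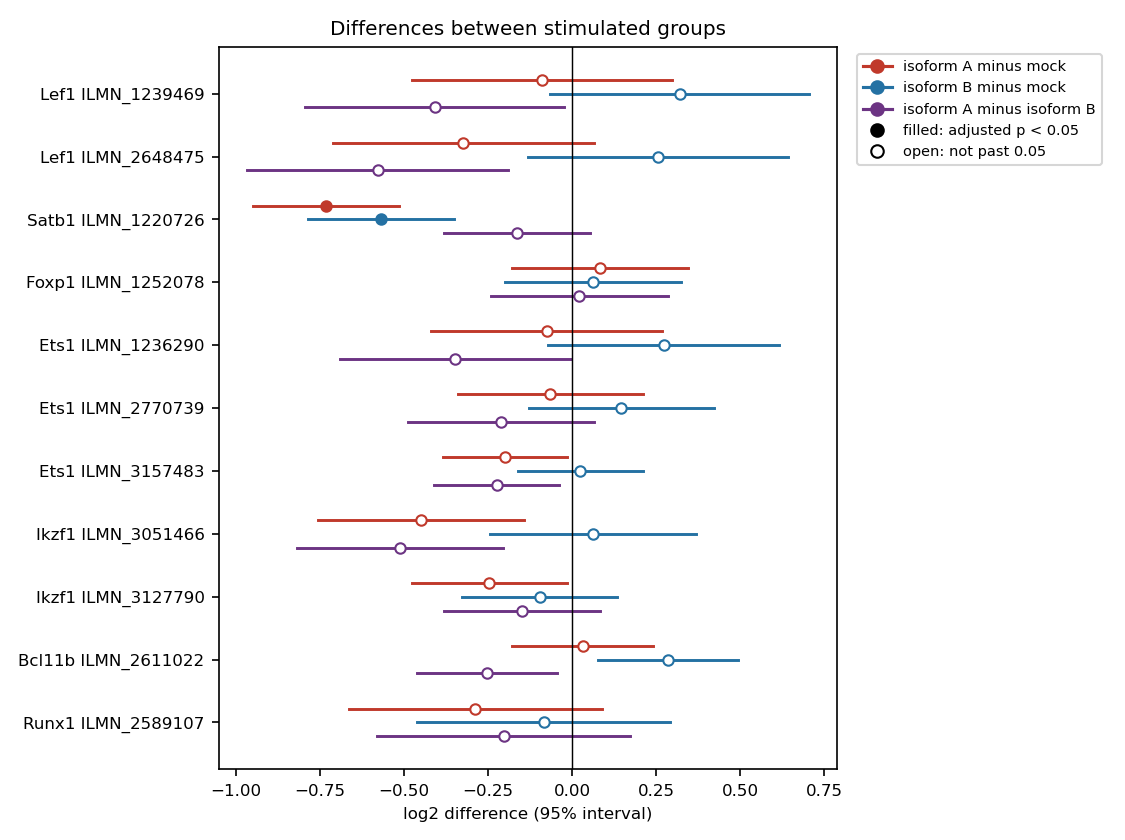
Log2 differences between the stimulated groups for the 11 probes with 95% intervals, where filled points have an adjusted p under 0.05. Only Satb1 has filled points, at -0.73 for isoform A and -0.57 for isoform B against mock, and 10 of 11 differences between isoforms A and B lie below 0.

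Genes related to these factors were described in 5 lists, with 1 probe per gene, beside a background of 66.4% of 8480 genes called between stimulated and unstimulated isoform A cells (29.6% higher and 36.8% lower). Of 13 measured paralogs 5 were higher and 6 lower, with a median of -0.25 against -0.0229 over all genes. The forkhead gene Foxp4 rose 5.90-fold and the ETS family repressor Etv6 5.88-fold. Foxp4 was above background on 3 of 4 unstimulated arrays, and its log2 rise was 2.56, or 1.07 without background correction, so its fold is uncertain. The ETS gene Fli1 fell 3.80-fold, and the Ikaros family gene Ikzf4 fell 3.34-fold to a level above background on 1 of 4 stimulated arrays, so its fold is uncertain. Without background correction the log2 difference was 1.54 for Etv6 (2.56 in the main fit) and -1.02 for Fli1 (-1.93), so these sizes depend on that step. Members of the ETS family thus moved in both directions on these arrays.

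Of 20 measured partners and cofactors 10 were higher and 3 lower (median 0.35). Tle3, a Groucho corepressor that binds TCF and LEF factors, rose 5.02-fold and its other 2 probes also rose. The small Maf genes, whose proteins pair with BACH factors, were among the higher ones, Mafg by 2.79-fold and Maff by at least 2.07-fold over probes not above background in unstimulated cells. Mta3, a subunit of the NuRD complex that Ikaros and Bcl11b recruit, fell 2.89-fold, and its other probe fell as well. With no background correction the log2 rises were 1.22 for Tle3 (2.33 in the main fit), 1.10 for Mafg (1.48) and 0.45 for Maff (1.41). The Mta3 difference was then -1.29 (-1.53 in the main fit). The 2 other members that were lower were Sin3a and Cbfb, named after their values were seen, with differences of -1.11 and -0.49. Under median scaling 7 of these 20 genes were higher and 4 lower, and with the mouse as a block 10 were higher and 5 lower, with Tle4 (-0.25, adjusted p = 0.0456) and Hdac1 (-0.29, adjusted p = 0.044) added.

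Of 14 other transcription factors of early and naive T cells 4 were higher and 8 lower (median -0.46). Klf2 and Klf3, zinc finger factors of quiescence, fell 72-fold and 4.89-fold, Nfatc3 fell 6.34-fold, and Foxo1, the forkhead factor of homing and survival, fell 2.97-fold. The log2 difference of Klf2 was -6.17, or -4.51 without background correction, so the size of its fold depends on that step. Without it the differences were -1.47 for Nfatc3 (-2.66 in the main fit), -1.355 for Klf3 (-2.29) and -1.33 for Foxo1 (-1.57). The 4 higher members were Zfp281, Tcf12, Gata3 and Klf13 (0.39 to 0.71, named after their values were seen), and under median scaling 2 members were higher and 9 lower. Of 16 naive T cell surface and signalling genes 5 were higher and 8 lower (median -0.37). The homing receptor gene Ccr7 fell 7.81-fold, to a level above background on 1 of 4 stimulated arrays, Rasgrp1, a Ras activator, fell 4.95-fold and Actn1 4.51-fold, while the cytokine receptor gene Il6st rose 6.89-fold. Their log2 differences without background correction were -1.34 for Ccr7 (-2.97 in the main fit) and -2.23 for Rasgrp1 (-2.31). Those of Actn1 and Il6st were -1.83 (-2.17 in the main fit) and 1.435 (2.785). Of 20 effector and differentiation transcription factors 14 were higher and 3 lower (median 1.44), among them Rel (32.3-fold), Bcl6 (22-fold), Tbx21 (11-fold) and Myc (8.16-fold). These 4 genes were named for the largest differences of their list, so they are not a measure of the list. In the same comparison Foxp1 rose by 1.04 and Ikzf1 by 1.03 and 0.58 on the log2 scale, beside that list's median of 1.44. Rel was above background on 3 of 4 unstimulated arrays, and its log2 rise was 5.01, or 2.97 without background correction, so its fold is uncertain. Without that correction Bcl6 rose by 3.22 (4.46 in the main fit), Tbx21 by 2.82 (3.46) and Myc by 1.97 (3.03).

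**Figure D4:**
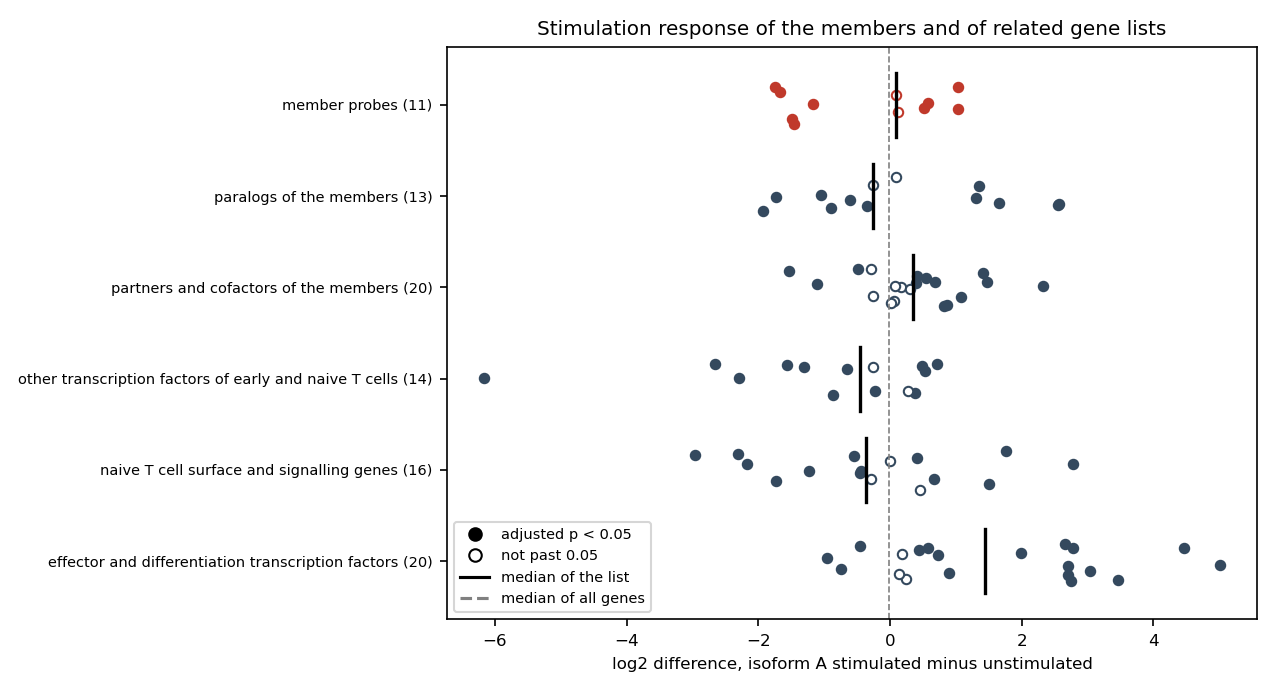
Log2 difference between stimulated and unstimulated isoform A cells for the 11 probes and for 1 probe per gene in 5 lists of related genes, with vertical bars at each list's median and a dashed line at the median of all genes. Effector transcription factors have a median of 1.44, and the 11 probes have points on both sides of 0 with a median of 0.09.

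Between isoform A and mock 4.47% of genes passed (2.43% higher and 2.04% lower). Of the paralogs, Foxp4 was higher with isoform A by 0.90 ± 0.15 (adjusted p = 0.00205) and Ets2 by 0.37 ± 0.09 (adjusted p = 0.0317, lost under median scaling). Among partners, 1 of 3 probes of Chd4, the NuRD helicase, was higher by 0.50 ± 0.10 (adjusted p = 0.00955, lost under median scaling) and its other 2 probes differed by -0.17 and 0.25 without passing. No member of the other early and naive factors passed. Gpr183, a chemotactic receptor of lymphocytes, was lower by 0.77 ± 0.11 (adjusted p = 0.000898), and Il6st was higher by 0.57 ± 0.15 (adjusted p = 0.0355, lost under median scaling). Of 20 effector factors 5 were higher and 3 lower. Stat5a was higher by 1.45 ± 0.14 (adjusted p = 2.04e-05) on 1 probe and by 0.96 on the other. Zbtb32 was higher by 0.64 and Hif1a and Bcl6 were lower by 0.79 and 0.70, and these 3 calls were lost under median scaling, which left 1 higher and 0 lower. Between isoform B and mock (1.64% of genes, 0.802% higher and 0.837% lower) Gpr183 was the 1 listed gene that passed, lower by 0.69 ± 0.11 (adjusted p = 0.0033). Between isoforms A and B (0.165% of genes higher and 0.00% lower with isoform A) Stat5a and the same Chd4 probe passed, higher with isoform A by 0.93 and 0.58, the latter not under median scaling, and the other Stat5a probe did not pass (0.60, adjusted p = 0.187). Blocking on mice added Cbfb (-0.27, adjusted p = 0.0266), Cd27 (-0.34, adjusted p = 0.0482) and Myc (0.34, adjusted p = 0.0232) for isoform A against mock. For isoform A against isoform B it added Foxp4 (0.73, adjusted p = 0.0189) and Zeb1 (0.46, adjusted p = 0.0459). These genes, like Tle4, Hdac1 and the markers called only with the block, were named after their values were seen.

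For each factor, the genes whose level ran most like its own over the 16 arrays were found by Pearson's r among 8479 genes, as a description. The stimulated and unstimulated arrays form separate clusters for most of these genes, so the r over the 12 stimulated arrays is given as well. Cyb5b, Gpr146 and Rab19 were nearest to Satb1, with r of 0.977, 0.972 and 0.967 over 16 arrays and 0.955, 0.917 and 0.933 over the stimulated ones. The 3 nearest genes of Bcl11b were Tedc1, Wrn and Gtse1 (0.985 to 0.987, and 0.742 to 0.793 over stimulated arrays). Ets1 ILMN_3157483 ran with Klhl6, Nlrc3 and Nagk (0.994 to 0.995, and 0.789 to 0.869). Prkacb, Ccne2 and Icos were nearest to Lef1 (0.95 to 0.958, and 0.734 to 0.819), Tnfrsf21, Mrps18b and Rai14 to Foxp1 (0.973 to 0.976, and 0.696 to 0.745), and Sdcbp, N4bp2 and Dnajc16 to Ikzf1 (0.953 to 0.96, and 0.735 to 0.809). Runx1 had its nearest genes at lower r, Hoxd10, Pum2 and Stt3b (0.779 to 0.825, and 0.789 to 0.843). All these genes share the arrays and the normalization with the factor they are set beside.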

How the data were processed

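RNA of 16 samples was measured on one-colour Illumina bead arrays. The deposited intensity values were unnormalized probe signals from GenomeStudio 2011.1, per the submitters' processing notes, with a detection p-value beside each, per the file headers. The deposited value table of the series, an alternative here, holds intensity values that ranked the probes of each array as the raw signals did (Spearman 1), with column medians of 8.065 to 8.109 and values down to -20.47. It was taken as linear, and its normalization is not given in the sources used here. No column belonged to another series (0).

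From the raw signals, limma's nec function (normexp, using the detection p-values) removed background, arrays were quantile normalized, 16 was added and log2 taken (R 4.3.3, limma 3.58.1, statmod 1.5.0; figures with Python 3.11.15 and matplotlib 3.10.9). Groups were compared with limma's moderated test on 4 group means (12 residual degrees of freedom, 2-sided). Benjamini-Hochberg adjustment was over 12344 probes, at a threshold of 0.05. Gene lists and shares of genes took the brightest probe per gene (8480 genes) with these same adjusted p-values, without a new adjustment. A value after ± is a standard error, or an SD where so named. All groups share 1 estimate of spread per probe. For a probe not above background on any array of one group, a fold is a lower bound against the dimmest detected signal.

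The replicate number stands for the mouse. Deviations from the group means had a mean r of 0.272 between arrays of 1 mouse (0.109 to 0.401, 24 pairs) and of -0.0905 between different mice (72 pairs). The model without the mouse is the main one. The value with the mouse as a block is given where it changes a call printed here. All genes matched RefSeq names by gene ID (7 of 7). The 9 genes and the lists were chosen with earlier results of these data known. From each list, up to 4 genes with the largest difference past the threshold are named for stimulation and for isoform A against mock, and up to 2 for the other isoform comparisons, and the 3 genes nearest to each factor are named by r. Alternatives were median scaling, no background correction, the authors' table, an offset of 50, no detection filter, a detection p of 0.01, 1 probe per gene, the block, fits of 2 groups, each array left out, and 2 mice alone.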

Additional observations from a re-analysis of the deposited data

Results flagged for a closer look

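Over 11 probes and 4 groups, 44 sets of 4 arrays were examined for an array far from the others, and 2 had a gap to the nearest array that took a share of the range above Dixon's 95% critical value, where chance gives about 1 in 20 such sets. For Ets1 ILMN_1236290 in unstimulated isoform A cells, the array of mouse 3 stood at 4.62 against 5.17 for its neighbour (gap share 0.864). For Bcl11b on mock arrays, mouse 3 stood at 9.84 against 9.99 (gap share 0.835).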

How the results depend on the processing

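Over 66 differences of single probes (11 probes, 6 comparisons) and 1230 alternative values, 1208 kept their side of the threshold, 10 lost the call, 10 gained it and 2 turned sign with a call on one side. Differences that were uncalled in both fits could turn sign and stand among the 1208. The 2 were both under median scaling in stimulated against unstimulated isoform A cells: Ets1 ILMN_2770739 (-0.028) and Runx1 (-0.469). Counts below give probes called among the 11 first, then among all probes. For isoform A against mock (1 and 509), all probes were 151 under median scaling and 178 in a fit of 2 groups. There were 2 of the 11 with no background correction, 2 and 947 with the replicate block, 0 and 43 in mice 1 and 2 alone, and 2 and 782 in mice 3 and 4 alone. For isoform B against mock (1 and 183), median scaling gave 0 and 80, the replicate block 432 of all, 2 groups 77 of all, mice 1 and 2 alone 0 and 13, and mice 3 and 4 alone 0 and 23. For isoform A against B (0 and 17), all probes were 38 with no background correction, 29 with an offset of 50, 46 with the replicate block, 0 in a fit of 2 groups and 2 in mice 1 and 2 alone, and mice 3 and 4 alone gave 1 and 203. With 1 probe per gene isoform B against unstimulated cells had 6 calls, since only 7 probes are then tested. The cause of the other shifts was not tested, except that fits of 2 groups or 2 mice hold fewer samples.

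Leaving out 1 array at a time gave, among the 11 and among all probes, 9 and 7817 to 7990 for isoform A against unstimulated, 9 to 10 and 7738 to 7892 for mock, and 9 to 10 and 7742 to 7919 for isoform B. It gave 1 to 2 and 239 to 644 for isoform A against mock, 1 and 111 to 155 for isoform B against mock, and 0 to 1 and 5 to 27 for isoform A against B. The counts moved by over 1.5 times without isoform A array 3 (239 against mock, 5 against B), isoform A array 4 (313), mock arrays 3 (332) and 4 (310, and 111 for isoform B), isoform A array 1 (27 against B), and isoform B arrays 2 (113 against mock) and 3 (11 against A). Without isoform A array 2, Ikzf1 ILMN_3051466 was called against mock and against B. Comparisons of 2 mice alone were chosen after seeing the data. Signals near background limit Ets1 ILMN_1236290 and Malt1.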
